A study of Homo sapiens with 24 samples.

Results

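The Krüppel-like factors measured here are KLF2, KLF3, KLF4, KLF5, KLF6, KLF7, KLF9, KLF10, KLF11 and KLF13, 10 of the 36337 names on the array, and every probe that carries one of these gene names was read. They were measured in 6 groups of 4 arrays of HT29, a cell line from a human colon adenocarcinoma. NT cells were left untreated. For 6 h, the other cells received C3/C2 (30 mM propionate with 15 mM acetate), SN (a culture supernatant of the dairy bacterium *Propionibacterium freudenreichii*, diluted 1/2), TRAIL (100 ng/ml, together with 2 μg/ml of anti-Flag antibody), or TRAIL combined with C3/C2 or with SN. All groups share this single cell line. Cy3-labelled RNA of each culture was read on its own Agilent array of human transcripts. A level is given below as the log2 intensity of a probe minus the 75th percentile of its array, so that 0 is the 75th percentile, and a difference is a difference of such levels. The methods describe independent experiments in duplicate, but the labels do not say which replicates share an experiment, so the p values measure the spread between arrays, part of which may be technical.

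Krüppel-like factors are zinc finger proteins that bind GC-rich and CACCC sequences in promoters and either activate or repress transcription. In the colon, KLF5 is known from dividing cells at the base of the crypt and KLF4 from the differentiated cells above them, where it restrains the cell cycle. Members such as KLF9, KLF10, KLF11 and KLF13 bind the corepressor SIN3A, KLF3 binds the corepressor CtBP, and the transcripts of several members respond within hours to hormones, TGF-β or stress.

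The 10 genes had 13 probes, 3 of them for KLF6 and 2 for KLF11. Of these probes 11 passed the filter on dim probes, which asks that in 1 or more groups all 4 arrays show a signal well above background, and 9 of the 10 genes were tested among 20700 genes. KLF7 was not tested, since its probe was well above background on 1 of the 24 arrays. A gene counts as called here if it changed 2-fold or more with a Benjamini-Hochberg adjusted p under 0.05 in limma, and every adjusted p below comes from that fit unless another setting is named. All 11 colon epithelium markers were well above background on all arrays, whereas of the 5 fibroblast markers LUM was so on all 24 arrays, COL1A1 on the 16 arrays with C3/C2 or SN, and COL1A2, COL3A1 and DCN on none. The 75th percentile of intensity lay between 453 and 1009 over the arrays, and was lower in the co-treatments (medians of 503 and 520) than in NT (883). The arrays lay on 4 slides. SN and TRAIL shared slide 3, both co-treatments shared slide 4, and NT and C3/C2 shared slides 1 and 2. A treatment other than C3/C2 and its slide therefore cannot be told apart in the comparisons with NT or in the interactions. The same holds for SN against C3/C2, for TRAIL+C3/C2 against C3/C2 and for TRAIL+SN against SN.

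KLF4 and KLF9 rose in every treatment that contained propionate and acetate or the bacterial supernatant, and no other of the 9 genes was called with C3/C2, SN or TRAIL+C3/C2. With TRAIL+SN, KLF10 rose as well. With TRAIL alone no KLF gene was called, and none was called lower in any comparison, except KLF3 and KLF11 in co-treatments with spike-in scaling, as given below. Set against all genes, 2 of 9 called with C3/C2 compares with 19.6% of the genes tested, 2 of 9 with SN with 24%, 2 of 9 with TRAIL+C3/C2 with 24.2%, and 3 of 9 with TRAIL+SN with 26.2%. The share of the family that was called was thus near that of the array as a whole. In TRAIL against NT, 0 of 9 compares with 2.93% of all genes, while limma gave 3 KLF genes an adjusted p under 0.05 and 4 an unadjusted p under 0.05. Counted by adjusted p at any fold, the KLF genes past 0.05 were 6 of 9 with C3/C2, beside 63% of all genes, 7 with SN, beside 69.3%, and 3 with TRAIL, beside 33.5%. They were 8 with TRAIL+C3/C2, beside 69.4%, and 6 with TRAIL+SN, beside 70.1%.

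**Figure D1:**
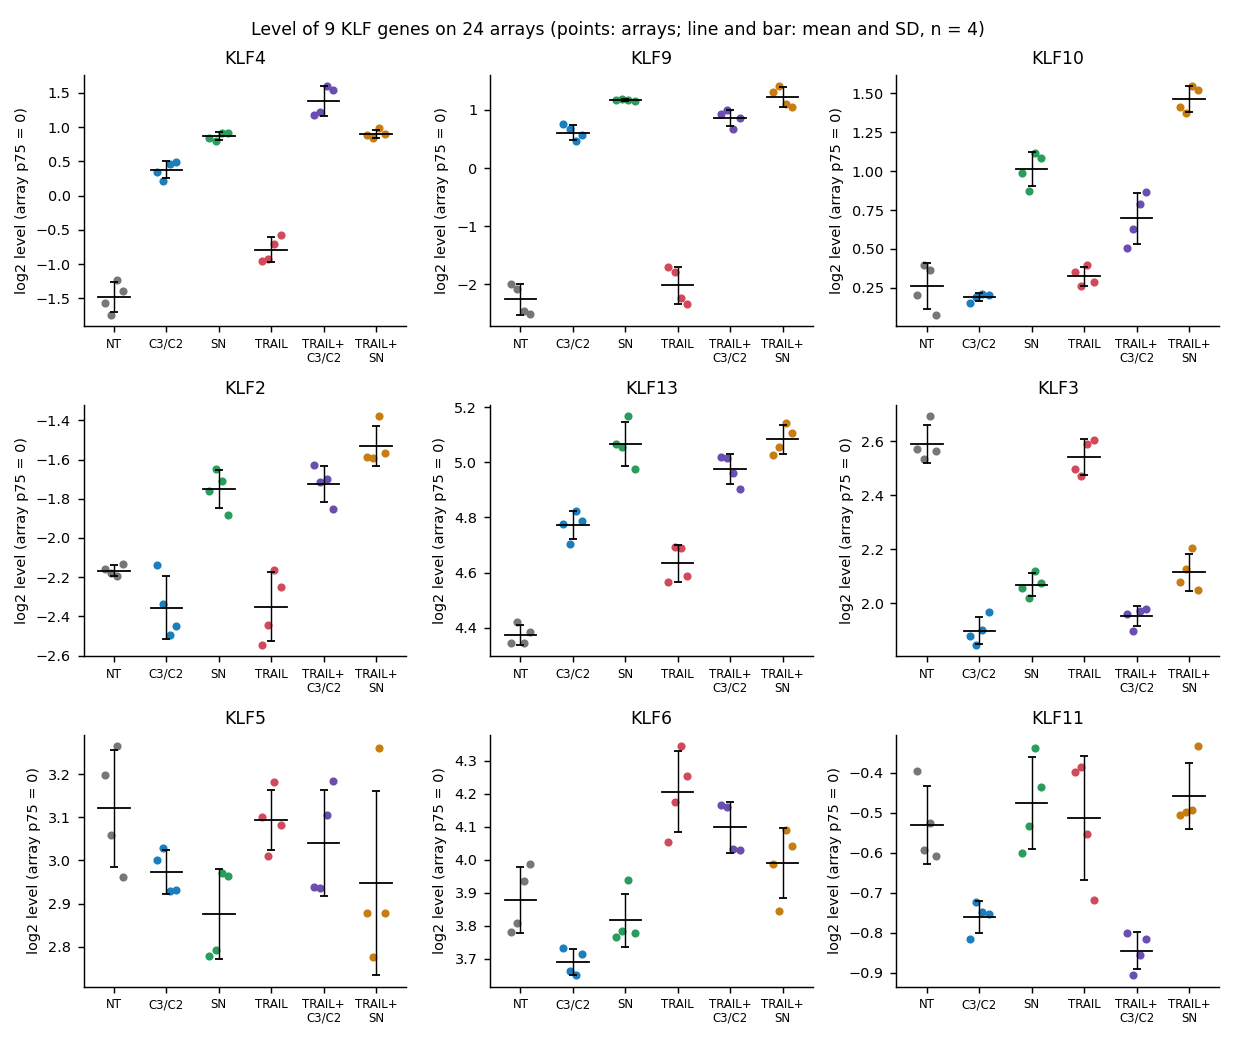
Level of each of the 9 KLF genes tested on every array, in log2 units with the 75th percentile of each array at 0, by group; points are arrays, lines and bars are the mean and SD of 4 arrays. KLF4 and KLF9 lie higher on all arrays with C3/C2 or SN than on any NT or TRAIL array, and KLF3 lies lower; the levels of different genes are not comparable, since each has its own probe.

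KLF4, the transcription factor of differentiated intestinal epithelium, was read by 1 probe (chr9:110248049-110248108 on hg19, minus strand). Its levels were -1.56, -1.74, -1.23 and -1.40 on the NT arrays and 0.34, 0.22, 0.46 and 0.50 on the C3/C2 arrays. On the SN arrays they were 0.84, 0.80, 0.92 and 0.92, and on the TRAIL arrays -0.95, -0.92, -0.71 and -0.57. The groups did not overlap, and even TRAIL alone lay above all NT arrays. In the co-treatments the levels were 1.18, 1.22, 1.60 and 1.54 with TRAIL+C3/C2 and 0.88, 0.84, 0.99 and 0.91 with TRAIL+SN. On this scale all TRAIL+C3/C2 arrays lay above those of the other groups, and TRAIL+SN overlapped SN. With spike-in scaling TRAIL+SN minus SN was -0.56 and TRAIL+SN minus TRAIL+C3/C2 was -0.30, which places SN above TRAIL+C3/C2.

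The rise of KLF4 over NT was 1.86 ± 0.11 (SE) on the log2 scale with C3/C2, a 3.63-fold change (adjusted p = 3.96e-12), and 2.35 ± 0.11 with SN, a 5.10-fold change (adjusted p = 7.33e-14). It was 2.87 with TRAIL+C3/C2 (7.29-fold, adjusted p = 3.02e-15) and 2.39 with TRAIL+SN (5.23-fold, adjusted p = 5.08e-14). The difference of 0.70 with TRAIL alone (adjusted p = 6.46e-05) did not reach a fold change of 2. Within slides the values held: C3/C2 exceeded NT by 1.90 on slide 1 and by 1.85 on slide 2, and SN exceeded TRAIL by 1.66 on slide 3 (adjusted p = 2.35e-11).

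The order of KLF4 levels between the fatty acids and the supernatant was not the same with and without TRAIL. Alone, and on different slides, SN gave a level 0.49 ± 0.11 higher than C3/C2 (adjusted p = 0.00103), while with TRAIL present SN gave a level 0.48 ± 0.11 lower than C3/C2 (adjusted p = 0.00166), a comparison made within slide 4. The latter was -0.33 with array median scaling (adjusted p = 0.0525) and -0.30 with spike-in scaling (adjusted p = 0.0699). With TRAIL added to C3/C2, KLF4 rose by 1.00 (adjusted p = 5.96e-07), just past a fold change of 2, and this was the 1 call among the 9 genes, beside 3.73% of all genes. That call was lost when C3/C2 replicate 1 or 2 or TRAIL+C3/C2 replicate 3 or 4 was left out, with differences of 0.93 to 0.99. It was also lost with array median, quantile or spike-in scaling and with normexp background correction, with differences of 0.49 to 0.96. The authors' table, itself scaled to the array median, gave the same value as that scaling. Adding TRAIL to SN left a difference of 0.03 (95% interval -0.20 to 0.27, adjusted p = 0.866), whose sign turned with array median scaling, to -0.03, with normexp background correction, to -0.01, and with spike-in scaling, to -0.56 (adjusted p = 0.000344). The interaction is the log2 difference of a co-treatment from NT minus both differences of the single treatments, and it was -0.66 ± 0.16 for TRAIL and SN (adjusted p = 0.00432) and 0.31 ± 0.16 for TRAIL and C3/C2 (adjusted p = 0.350).

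KLF9, a factor whose transcript is known to be induced by glucocorticoid and thyroid hormones, had the largest difference of the family in every treatment but TRAIL. Its probe (chr9:72999837-72999896 on hg19, minus strand) gave levels of -1.99, -2.08, -2.46 and -2.50 on the NT arrays and of 0.75, 0.66, 0.46 and 0.56 with C3/C2. With SN the levels were 1.16, 1.19, 1.17 and 1.15, the tightest group of any KLF gene tested (SD of 0.02), and with TRAIL -1.71, -1.79, -2.24 and -2.34. TRAIL overlapped NT, although each TRAIL array lay above the NT array of the same replicate number. C3/C2 and SN lay far above both. The levels with TRAIL+C3/C2 were 0.93, 1.00, 0.67 and 0.86, and with TRAIL+SN 1.30, 1.41, 1.10 and 1.05.

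Against NT, KLF9 rose by 2.87 ± 0.13 with C3/C2 (7.30-fold, adjusted p = 1.04e-13), by 3.43 ± 0.13 with SN (10.8-fold, adjusted p = 4.61e-15), by 3.12 with TRAIL+C3/C2 (8.70-fold, adjusted p = 2.04e-14) and by 3.48 with TRAIL+SN (11.1-fold, adjusted p = 3.07e-15). TRAIL alone gave 0.24 (95% interval -0.04 to 0.53, adjusted p = 0.181). Over the alternative settings this difference ran from -0.02 to 0.35 and its limma adjusted p from 0.0315 to 0.939. The C3/C2 difference was 2.74 within slide 1 and 2.91 within slide 2, and SN exceeded TRAIL by 3.19 within slide 3 (adjusted p = 1.51e-14). In order of level, TRAIL+SN and SN differed by 0.05 (adjusted p = 0.846), SN and TRAIL+C3/C2 by 0.31 (adjusted p = 0.0708), and TRAIL+C3/C2 and C3/C2 by 0.25 (adjusted p = 0.155). None of these neighbours differed beyond their spread on this scale in the main fit, whereas SN exceeded C3/C2 by 0.56 (adjusted p = 0.00187). Over the alternative settings the limma adjusted p of TRAIL+C3/C2 against C3/C2 ran from 0.0238 to 0.315. With spike-in scaling TRAIL+SN minus SN was -0.55 for KLF9 (adjusted p = 0.0109), so the order depends on the scaling. The interactions of KLF9 were 0.01 with C3/C2 (adjusted p = 0.989) and -0.19 with SN (adjusted p = 0.510).

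**Figure D2:**
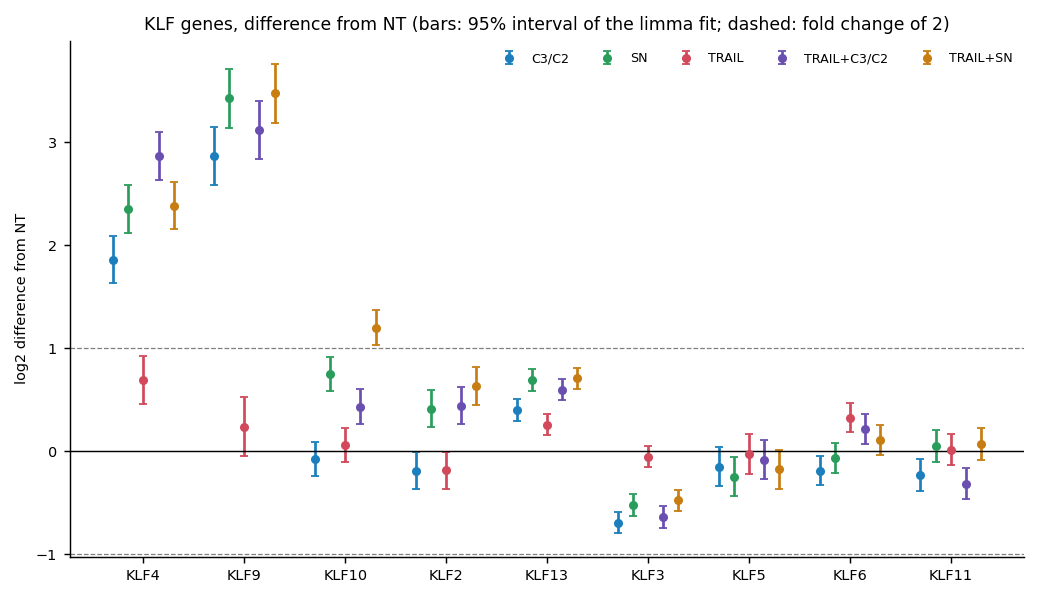
Log2 difference from NT of the 9 KLF genes in each treatment, from the limma fit of 6 groups over 24 arrays; bars are 95% intervals and the dashed lines mark a fold change of 2. KLF4 and KLF9 lie between 1.86 and 3.48 in the 4 treatments with C3/C2 or SN, KLF10 passes the line with TRAIL+SN only, and the other differences stay within it; with spike-in scaling KLF10 is at 0.67 there and KLF3, in both co-treatments, and KLF11, with TRAIL+C3/C2, lie past the lower line.

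Of the 36 pairs among the 9 genes, KLF4 with KLF9, KLF4 with KLF13 and KLF9 with KLF13 had the highest correlations of level over the 24 arrays, with Pearson's r of 0.92, 0.91 and 0.90, and KLF3 with KLF9 the lowest, -0.91. These values describe arrays that fall into 6 shared groups. The correlations are those of the main scale, and with spike-in scaling KLF13 was -0.11 in TRAIL+C3/C2 against NT. Because KLF4, KLF9 and KLF13 had the highest correlations, the 250 bases upstream of their annotated starts are shown here as the sequences a reader would compare. They come from RefSeq (GRCh38.p14), in which 8 of the 10 genes had a promoter entry, and are written 5′ to 3′ on the strand of the gene. Capitals mark, on either strand, the GC box GGGCGG, which Sp and KLF proteins bind, the motif CACCC, which KLF proteins also bind, the cAMP response element half-site TGACG, the promoter motif CCAAT, and the TATA box motif TATAAA. The KLF4 window is chr9:107489770-107490019 (minus strand), that of KLF9 chr9:70414658-70414907 (minus strand) and that of KLF13 chr15:31326585-31326834 (plus strand).
KLF4: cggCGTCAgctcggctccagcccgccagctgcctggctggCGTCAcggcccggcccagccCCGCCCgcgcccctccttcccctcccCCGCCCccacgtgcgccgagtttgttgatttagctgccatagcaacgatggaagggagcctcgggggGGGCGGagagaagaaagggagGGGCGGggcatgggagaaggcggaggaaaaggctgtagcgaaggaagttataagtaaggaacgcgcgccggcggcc
KLF9: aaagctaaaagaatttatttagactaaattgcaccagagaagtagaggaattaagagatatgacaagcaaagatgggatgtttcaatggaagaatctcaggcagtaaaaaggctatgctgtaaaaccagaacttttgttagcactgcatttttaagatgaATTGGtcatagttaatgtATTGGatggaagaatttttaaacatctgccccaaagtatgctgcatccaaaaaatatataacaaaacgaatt
KLF13: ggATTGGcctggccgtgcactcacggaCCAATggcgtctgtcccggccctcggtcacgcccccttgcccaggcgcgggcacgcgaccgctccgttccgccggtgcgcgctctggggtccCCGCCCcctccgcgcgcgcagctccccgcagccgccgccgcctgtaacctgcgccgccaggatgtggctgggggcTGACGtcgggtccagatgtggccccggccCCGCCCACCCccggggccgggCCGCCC

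KLF4 had 4 GC boxes and 2 TGACG half-sites in this window, and KLF13 had 3 GC boxes, 1 TGACG half-site, 2 CCAAT motifs and 1 CACCC motif that overlaps a GC box. KLF9 had neither a GC box nor a TGACG half-site, and its 2 motifs were both CCAAT. The base composition differed as much, with 69.2% G and C for KLF4, 78.8% for KLF13 and 32.4% for KLF9. None of the 5 motifs was in all 3 windows. Among the 35116 promoter windows of that table cut to the same length, 42.6% held GGGCGG, 54.7% CACCC, 21.2% TGACG and 32.0% CCAAT. A match is a description of these letters and not a binding site.

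KLF13, a widely expressed partner of SIN3A, showed smaller differences than KLF4 and KLF9. Its levels were 4.35, 4.42, 4.35 and 4.38 on the NT arrays, 4.78, 4.70, 4.82 and 4.79 with C3/C2, and 5.07, 5.06, 5.17 and 4.98 with SN. With TRAIL they were 4.57, 4.69, 4.69 and 4.59, with TRAIL+C3/C2 5.02, 5.02, 4.96 and 4.90, and with TRAIL+SN 5.03, 5.06, 5.14 and 5.11. All treated arrays lay above all NT arrays. The differences from NT, all below a fold change of 2, were 0.40 with C3/C2 (adjusted p = 4.40e-07), 0.69 with SN (adjusted p = 7.93e-11) and 0.71 with TRAIL+SN (adjusted p = 4.70e-11). With spike-in scaling the TRAIL difference of 0.26 (adjusted p = 0.000438) became -0.01 and the TRAIL+C3/C2 difference of 0.60 (adjusted p = 7.51e-10) became -0.11, so the direction of KLF13 in these groups depends on the scaling. The TRAIL+SN difference was 0.17 with spike-in scaling (adjusted p = 0.133), and the C3/C2 difference 0.10 with array median scaling (adjusted p = 0.306). On slide 3, SN exceeded TRAIL by 0.43 (adjusted p = 1.28e-07).

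KLF10, known as a TGF-β inducible early gene, separated the supernatant from the defined fatty acids. Its levels were 0.21, 0.39, 0.37 and 0.08 on the NT arrays, 0.15, 0.19, 0.21 and 0.21 with C3/C2, and 0.35, 0.26, 0.40 and 0.29 with TRAIL, and these 3 groups overlapped. With SN the levels were 0.99, 0.87, 1.11 and 1.08, above all of them. The co-treatments gave 0.50, 0.63, 0.79 and 0.87 with TRAIL+C3/C2 and 1.41, 1.38, 1.55 and 1.52 with TRAIL+SN, which lay above every other array.

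KLF10 rose by 1.20 ± 0.08 with TRAIL+SN (2.30-fold, adjusted p = 1.63e-11), a difference that was 0.67 and below a fold change of 2 with spike-in scaling. The difference was 0.75 with SN (adjusted p = 2.98e-08) and -0.07 with C3/C2 (95% interval -0.24 to 0.10, adjusted p = 0.456). SN exceeded C3/C2 by 0.82 (1.77-fold, adjusted p = 5.45e-08), or by 1.09 and past a fold change of 2 with spike-in scaling, and TRAIL+SN exceeded TRAIL+C3/C2 by 0.77 within slide 4 (adjusted p = 2.23e-07). Over NT, TRAIL+C3/C2 gave 0.44 (adjusted p = 5.09e-05), which turned to -0.28 with spike-in scaling. TRAIL added 0.45 to SN (adjusted p = 0.000494) and 0.51 to C3/C2 (adjusted p = 4.31e-05), values that were -0.15 and -0.01 with spike-in scaling. No KLF gene was called in SN against C3/C2, beside 5.7% of all genes, nor in TRAIL+SN against TRAIL+C3/C2, beside 3.53%. In SN against C3/C2 limma gave 7 KLF genes an adjusted p under 0.05 and 7 an unadjusted p under 0.05, and in TRAIL+SN against TRAIL+C3/C2 5 and 7. At any fold, 47.4% of all genes had an adjusted p under 0.05 in the first of these and 37.6% in the second. SN against TRAIL called 2 of 9, KLF4 and KLF9, beside 21.1% of all genes, and gave 8 of 9 an adjusted p under 0.05, beside 66.4%. With TRAIL added, 5 of 9 had one against C3/C2, beside 35.4% of all genes, and 1 of 9, KLF10, against SN, beside 20%. No KLF gene was called in TRAIL+SN against SN, beside 1.07% of all genes, where limma gave 3 an unadjusted p under 0.05.

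KLF2, best known as a factor of quiescent T cells and of endothelium under flow, was read by a probe with 10 spots on each array. Its levels were -2.16, -2.18, -2.19 and -2.13 on the NT arrays, -2.14, -2.34, -2.50 and -2.45 with C3/C2, and -2.55, -2.45, -2.16 and -2.25 with TRAIL. These 3 groups overlapped. With TRAIL+C3/C2, the levels were -1.63, -1.72, -1.70 and -1.85, above all arrays of both single treatments. The levels were -1.76, -1.65, -1.71 and -1.88 with SN and -1.59, -1.59, -1.38 and -1.57 with TRAIL+SN.

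C3/C2 and TRAIL each gave KLF2 a value slightly under NT, -0.19 (adjusted p = 0.0605) and -0.18 (adjusted p = 0.105), while their combination gave 0.44 (adjusted p = 0.000106), which turned to -0.27 with spike-in scaling (adjusted p = 0.0511). The interaction was 0.82 ± 0.12 (adjusted p = 0.00043), and 0.57 with spike-in scaling (adjusted p = 0.117). C3/C2 minus NT was 0.02 on slide 1, which holds 1 array of each, and -0.26 on slide 2. SN exceeded NT by 0.42 (adjusted p = 0.000203), and SN exceeded TRAIL by 0.60 within slide 3 (adjusted p = 2.64e-06). The interaction of TRAIL and SN was 0.40 (adjusted p = 0.0202) and 0.07 with spike-in scaling (adjusted p = 0.784), 0.24 with array median scaling (adjusted p = 0.209) and 0.31 with quantile normalization (adjusted p = 0.0756).

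None of the 9 genes reached a fold change of 2 in an interaction, beside 0.657% of all genes in the interaction with C3/C2 and 3.1% in that with SN. limma gave 2 of them an adjusted p under 0.05 in the first (KLF2 and KLF10) and 4 in the second (KLF2, KLF4, KLF10 and KLF13), and the same numbers an unadjusted p under 0.05, beside 2.88% and 23.2% of all genes at the adjusted threshold. KLF10 had an interaction of 0.44 ± 0.11 with C3/C2 (adjusted p = 0.0343) and of 0.39 ± 0.11 with SN (adjusted p = 0.0166), and KLF13 one of -0.24 ± 0.07 with SN (adjusted p = 0.0169). With spike-in scaling those of KLF10 were 0.19 and 0.05, with adjusted p of 0.504 and 0.842, and with array median scaling 0.30 and 0.22, with adjusted p of 0.270 and 0.30. Those of KLF4 and KLF13 with SN were -0.99 and -0.58 with spike-in scaling, which moved the median interaction of all genes from 0.01 to -0.24 for C3/C2 and from -0.01 to -0.34 for SN.

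**Figure D3:**
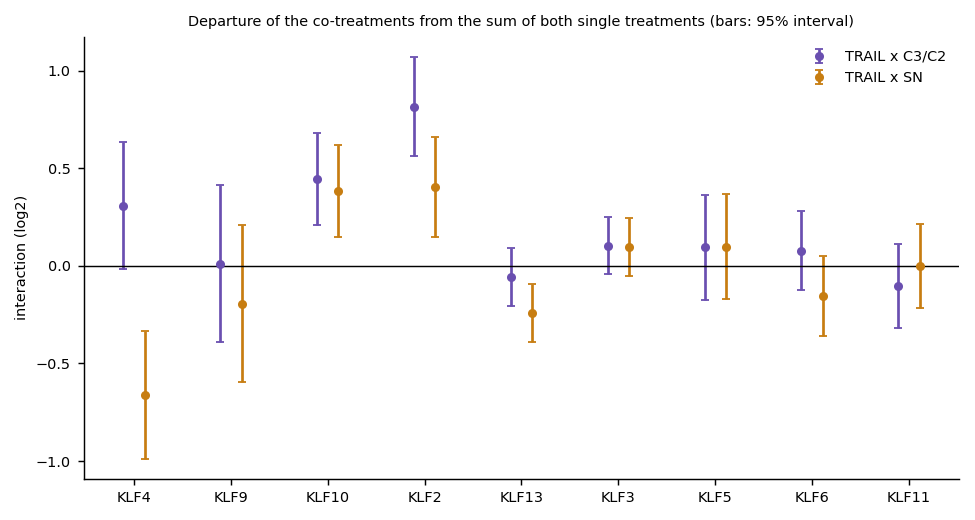
Interaction of TRAIL with C3/C2 and with SN for the 9 KLF genes, on the log2 scale, where 0 means that the co-treatment equals the sum of both single treatments; bars are 95% intervals. KLF2 lies at 0.82 with C3/C2 and KLF4 at -0.66 with SN, while KLF9 lies near 0 with C3/C2; the treatments in each interaction lay on different slides, and with spike-in scaling the values of KLF2 are 0.57 and 0.07.

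KLF3, a repressor that works through CtBP, was the member with the clearest lower levels. They were 2.57, 2.54, 2.69 and 2.56 on the NT arrays, 1.88, 1.85, 1.90 and 1.97 with C3/C2, and 2.06, 2.02, 2.12 and 2.08 with SN. With TRAIL they were 2.50, 2.47, 2.59 and 2.60, which overlapped NT. With TRAIL+C3/C2 they were 1.96, 1.90, 1.97 and 1.98, and with TRAIL+SN 2.08, 2.13, 2.20 and 2.05. All 16 arrays with C3/C2 or SN lay below all 8 arrays without them.

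The difference of KLF3 from NT was -0.69 ± 0.05 with C3/C2 (adjusted p = 8.78e-11), the same on slide 1 and slide 2, and -0.52 with SN (adjusted p = 6.07e-09). It was -0.64 with TRAIL+C3/C2 (adjusted p = 2.59e-10) and -0.48 with TRAIL+SN (adjusted p = 2.32e-08), and -0.05 with TRAIL (95% interval -0.15 to 0.05, adjusted p = 0.482). These stayed under a fold change of 2, except with spike-in scaling, where the co-treatments reached -1.35 and -1.01. Neither interaction of KLF3 had an adjusted p under 0.05.

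KLF5, the factor of dividing crypt cells, was not called in any treatment. Its mean levels ranged from 2.88 ± 0.11 (SD, n = 4) with SN to 3.12 ± 0.14 in NT. The difference with SN was -0.24 (adjusted p = 0.0213), with overlapping groups, and the other treatments gave -0.03 to -0.17, with adjusted p of 0.0973 to 0.858. The intervals of the 5 differences ran from -0.44 to 0.16, all within a fold change of 2. With other scalings KLF5 was lower, at -0.79 with TRAIL+C3/C2 (adjusted p = 6.65e-06) and -0.71 with TRAIL+SN (adjusted p = 2.90e-05) with spike-in scaling, and at -0.45 with C3/C2 (adjusted p = 0.00158) with array median scaling. SN against TRAIL on slide 3 gave KLF5 -0.22 (adjusted p = 0.0398), which was 0.11 with spike-in scaling (adjusted p = 0.466).

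KLF11, the other TGF-β inducible member of the SIN3A group, was lower in the groups with defined fatty acids than with the supernatant. Its mean level was -0.76 ± 0.04 (SD, n = 4) with C3/C2 and -0.84 ± 0.05 with TRAIL+C3/C2. It was -0.53 ± 0.10 in NT, -0.51 ± 0.16 with TRAIL, -0.48 ± 0.11 with SN and -0.46 ± 0.08 with TRAIL+SN. All 8 arrays with C3/C2 lay below all NT and SN arrays. Against NT the difference was -0.23 with C3/C2 (adjusted p = 0.0088) and -0.31 with TRAIL+C3/C2 (adjusted p = 0.000633), which reached -1.02 with spike-in scaling. SN exceeded C3/C2 by 0.28 (adjusted p = 0.00297), and TRAIL+SN exceeded TRAIL+C3/C2 by 0.39 within slide 4 (adjusted p = 0.000258). The other probe of KLF11 was well above background on none of the 24 arrays.

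KLF6, a factor studied as a tumour suppressor with several splice forms, gave differing values with its 3 probes, all of them well above background on the 24 arrays. The brightest probe, designed on NM_001300 (chr10:3821387-3821446 on hg19, minus strand), stands for the gene in the tests. Its mean level was 3.88 ± 0.10 (SD, n = 4) in NT, 3.69 ± 0.04 with C3/C2 and 4.21 ± 0.12 with TRAIL. The difference from NT was -0.19 with C3/C2 (adjusted p = 0.0221) and 0.33 with TRAIL (adjusted p = 0.000932), and 0.22 with TRAIL+C3/C2 (adjusted p = 0.0074), where it turned to -0.13 with array median scaling and -0.49 with spike-in scaling. With the mean of the gene's probes the C3/C2 difference was 0.29 (adjusted p = 0.0220) and the TRAIL difference 0.02 (adjusted p = 0.901).

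The probe designed on NM_001160124 (chr10:3827370-3827429) differed from the brightest in sign with C3/C2, SN and TRAIL against NT. The signs also differed in SN against C3/C2, SN against TRAIL and TRAIL+SN against SN. Both probes lay above NT in the co-treatments, the brightest by 0.11 with TRAIL+SN (limma adjusted p = 0.149). The mean level of the probe on NM_001160124 was -3.40 ± 0.23 (SD, n = 4) in NT and -3.75 ± 0.23 with TRAIL, against -2.50 ± 0.12 with C3/C2 and -2.41 ± 0.18 with TRAIL+C3/C2. SN gave -2.89 ± 0.13 and TRAIL+SN -3.06 ± 0.34. In a fit of the 27953 probes, the difference from NT was 0.90 with C3/C2 (adjusted p = 1.83e-05), 1.00 with TRAIL+C3/C2 (adjusted p = 4.14e-06), 0.52 with SN (adjusted p = 0.00399) and -0.35 with TRAIL (adjusted p = 0.080). SN exceeded TRAIL by 0.86 on this probe within slide 3 (adjusted p = 2.72e-05), while the brightest probe gave -0.39 (adjusted p = 4.13e-05 in the same fit). The probe on ENST00000469435 gave no adjusted p under 0.05 in any comparison, and its SD reached 0.45. None of the 3 probes was called.

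**Figure D4:**
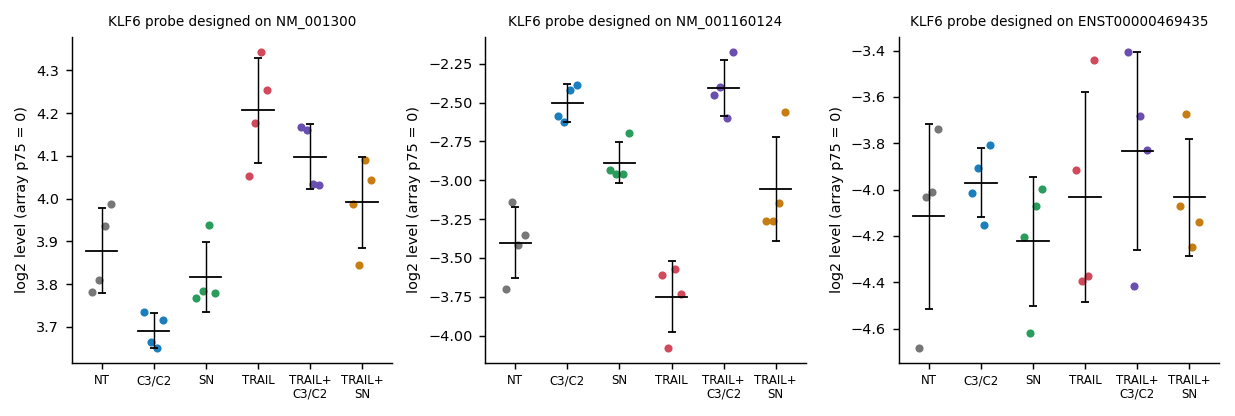
Level of the 3 KLF6 probes on every array, in log2 units with the 75th percentile of each array at 0, by group; points are arrays, lines and bars are the mean and SD of 4 arrays, and each panel has its own axis. The brightest probe is lowest with C3/C2 (3.69) and highest with TRAIL (4.21), and the probe on NM_001160124 has -2.50 and -3.75 in these groups, the opposite order.

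KLF7, known mostly from neurons, had a single probe with intensities of 2.9 to 7.6 on 23 arrays, none of them well above background. The highest of these, TRAIL+SN replicate 3, had a level of -6.15. TRAIL+C3/C2 replicate 2 stood alone with a level of -2.15 (an intensity of 116), while the other arrays of that group gave -7.41, -7.09 and -7.40. Without the filter on dim probes KLF7 was called higher with TRAIL+C3/C2, against NT (then 3 KLF genes called) and against C3/C2 (then 2), a call in a group where 1 array of 4 was well above background.

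Genes around the family were described from lists. Of the other SP and KLF genes, 14 of 16 were tested and none was called higher than NT in any treatment. SP2 was called lower with C3/C2 and TRAIL+C3/C2 (-1.43 in the latter, adjusted p = 6.29e-11), SP5, a Wnt target in many tissues, with SN and TRAIL+SN (-1.34 in the latter, adjusted p = 1.30e-11), and KLF8, a CtBP-binding repressor like KLF3, with TRAIL+SN (-1.20, adjusted p = 0.00119). At most 2 of the 14 were called in a treatment, beside 19.6% to 26.2% of all genes in the treatments with C3/C2 or SN. The median difference of the list was -0.44 with SN, beside -0.02 for all genes tested.

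Of 11 cofactors, calls numbered 1 in C3/C2, 2 in SN, 0 in TRAIL, 1 in TRAIL+C3/C2 and 3 in TRAIL+SN. The shares of all genes called were 19.6%, 24%, 2.93%, 24.2% and 26.2%, in that order. All cofactors called but HDAC3 were lower. CREBBP, an acetyltransferase that KLF proteins recruit, fell by 1.32 with TRAIL+C3/C2 (adjusted p = 8.38e-10), and its close relative EP300 fell by 1.08 with SN (adjusted p = 1.50e-10). HDAC3, a histone deacetylase, rose by 1.08 with TRAIL+SN (adjusted p = 9.45e-12). The median difference of the cofactors was -0.24 with C3/C2 and 0.05 with SN.

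Among 9 ubiquitin ligases and related proteins that act on KLF proteins, 2 were called with C3/C2, beside 19.6% of all genes, and 2 with SN, beside 24%. With TRAIL 1 was called, beside 2.93%, with TRAIL+C3/C2 3, beside 24.2%, and with TRAIL+SN 4, beside 26.2%. FBXO32, an F-box protein, rose by 1.59 with TRAIL+C3/C2 (adjusted p = 2.09e-08), and BTRC, the F-box protein β-TrCP, rose by 1.14 with SN (adjusted p = 1.49e-09). USP7, a deubiquitinase, fell by 1.27 with C3/C2 (adjusted p = 1.27e-10). SMURF1, a ligase of the TGF-β and BMP pathways, was at least 5.67-fold lower with TRAIL+C3/C2, a group in which none of its arrays was well above background. For this bound each dim array took the higher of its own signal and the lowest signal well above background. The limma adjusted p of 8.27e-10 is that of the measured difference. SMURF1 was also called lower with SN, TRAIL and TRAIL+SN, with mean levels of -4.58, -4.54 and -4.79, against -2.59 in NT. FBXO32 was also called with C3/C2 and TRAIL+SN, BTRC with TRAIL+SN, and USP7 with TRAIL+C3/C2.

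Of 18 upstream regulators, 1 of which (CDX2) is also a colon epithelium marker, calls numbered 3 in C3/C2, 4 in SN, 1 in TRAIL, 5 in TRAIL+C3/C2 and 7 in TRAIL+SN. The shares of all genes called in these treatments were 19.6%, 24%, 2.93%, 24.2% and 26.2%, in that order. The list medians were 0.31 with C3/C2 and 0.60 with SN. NOTCH1, which holds KLF4 down in the intestine, rose by 1.39 with TRAIL+SN (adjusted p = 1.30e-12), and SMAD2, a TGF-β transducer, fell by 1.38 with TRAIL+C3/C2 (adjusted p = 6.95e-10). MEF2C, an activator of KLF2, was well above background on no NT array and at least 4.76-fold higher with SN. NR3C1, the glucocorticoid receptor that acts on KLF9, was likewise well above background on no NT array and at least 2.26-fold higher with TRAIL+SN. The limma adjusted p of 1.48e-09 and 2.28e-12 are those of the measured differences, not of these bounds. MEF2C passed the filter on dim probes only through the groups with C3/C2 or SN, and NR3C1 only through TRAIL+SN. Each was high in those groups, so the calls there are no independent support. NR3C1 was also counted as called with TRAIL+C3/C2, where none of its arrays was well above background.

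Of 21 reported KLF targets, 16 were tested, and calls numbered 3 in C3/C2, 6 in SN, 1 in TRAIL, 4 in TRAIL+C3/C2 and 6 in TRAIL+SN, beside 19.6%, 24%, 2.93%, 24.2% and 26.2% of all genes. CDKN1A, the cell cycle inhibitor p21 and a target of KLF4 and KLF6, rose from a mean level of -4.11 ± 0.21 (SD, n = 4) in NT to 0.16 ± 0.16 with SN and 0.53 ± 0.29 with TRAIL+SN, by 4.64 in the latter (adjusted p = 4.59e-18). CDKN1C, another inhibitor of the cell cycle, rose by 3.86 with TRAIL+C3/C2 (adjusted p = 3.28e-14), and SMAD7, an inhibitor of TGF-β signalling that KLF10 represses, rose by 1.93 with TRAIL+SN (adjusted p = 4.80e-17). TXNIP, an arrestin-like protein of glucose metabolism, fell by 1.92 with SN (adjusted p = 1.22e-07). The list medians, 0.16 with C3/C2 and 0.19 with SN, lay near the 0.08 and -0.02 of all genes.

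Some genes used as markers of other cell types were called higher in the same groups as KLF4 and KLF9, while others were not. Of 5 fibroblast markers, COL1A1 was called higher in the 4 treatments with C3/C2 or SN, and the summed linear level of the list, in units of the 75th percentile of an array, was 0.14 to 0.20 in NT, 0.12 to 0.18 with TRAIL, 0.64 to 0.69 with C3/C2 and 0.85 to 1.05 with SN. COL1A1 passed the filter on dim probes only through the groups with C3/C2 or SN, where it was high, so its calls are no independent support. LUM, which was not called, had mean levels of -2.85 in NT, -3.08 with TRAIL, -1.86 with C3/C2, -2.08 with SN, and -2.23 and -2.22 in the co-treatments. Of 3 endothelial markers, PECAM1 was called higher in the same 4 treatments, with sums of 0.20 to 0.25 in NT, 0.33 to 0.43 with C3/C2 and 0.21 to 0.32 with SN, and all 3 were well above background on all arrays. Of the leukocyte markers, CD14 rose in both treatments with SN. The 11 colon epithelium markers summed to 1027 to 1149 in NT, 1007 to 1107 with C3/C2 and 1036 to 1174 with SN, but to 1368 to 1509 with TRAIL and 1458 to 1515 with TRAIL+C3/C2, and CDX2 and CDH1 of this list were called higher with SN and with TRAIL+SN. The part of these markers in the KLF values was not tested.

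For each KLF gene, the genes whose levels over the 24 arrays were most like it were sought among 15403 named genes. KLF9 was closest to KLHL29 and CYTH3 (Pearson's r of 0.997 for each), and KLF4 to DAPK3 and FAM89B (0.986 and 0.984). KLF3 was closest to C20orf177 and NUAK1 (0.983 for each), KLF13 to ZFPM1 (0.981), and KLF10 to EREG and PHLDA1 (0.970 and 0.962). KLF2 had WWC1 and MPZL2 (0.919 and 0.913), and KLF6 TRAF4 and CSDA (0.916 and 0.894). The genes with small differences had the weakest likeness, KLF11 with ZNHIT6 and CLDND1 (0.859 and 0.856) and KLF5 with ME1 and SRRM1 (0.847 and 0.845). The arrays share their groups and slides, so these values describe group patterns.

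The scaling of the arrays mattered most for the co-treatments. With scaling to the E1A spike-in probes TRAIL+C3/C2 had a median difference of all genes of -0.61 and TRAIL+SN one of -0.50, against 0.10 and 0.04 with the 75th percentile. KLF4 and KLF9 remained called in both co-treatments under each of the 5 scalings shown.

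**Figure D5:**
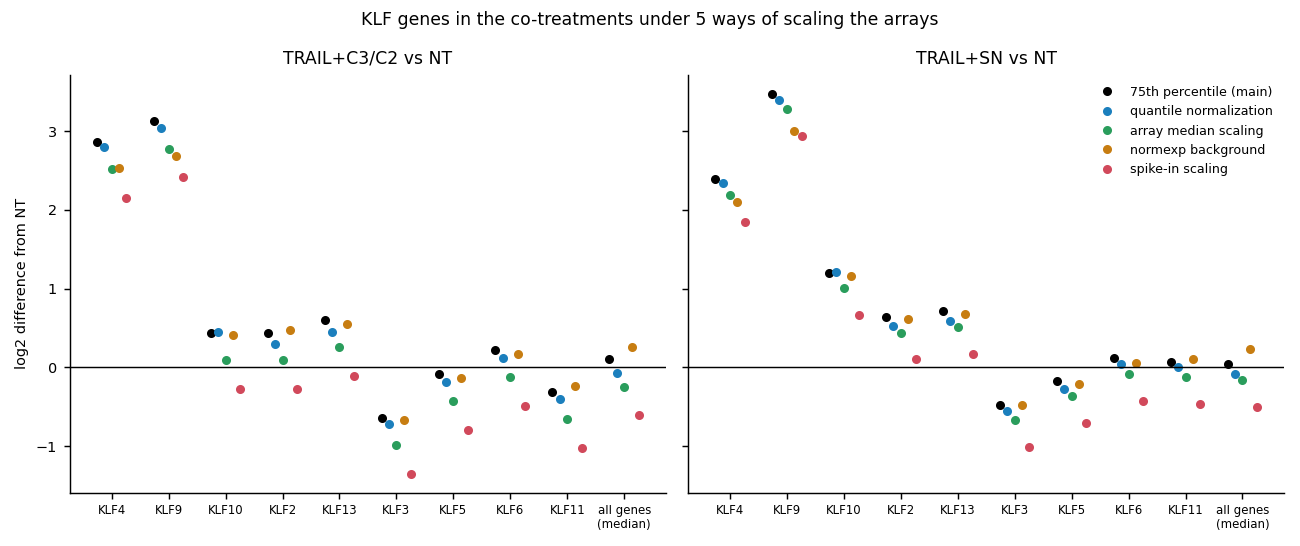
Log2 difference from NT of the 9 KLF genes in both co-treatments under 5 ways of scaling the arrays, with the median of all genes tested at the right. KLF4 and KLF9 stay above 1.8 in every scaling and KLF3 stays below 0, whereas KLF10, KLF2, KLF13 and KLF6 with TRAIL+C3/C2 lie above 0 with the 75th percentile and below 0 with spike-in scaling, which moves the median of all genes to -0.61 and -0.50.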

How the data were processed

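RNA of 24 HT29 cultures (6 groups of 4) was measured on 1-colour Agilent arrays. The deposited scanner files, made by the authors with Agilent Feature Extraction 10.7.3.1, hold the processed intensity of each spot, already corrected for background, and probe positions on hg19. A series table of the authors holds the same intensities, and its 24 columns of flags were not used.

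Outlier spots were dropped and spots of a probe averaged. Levels were log2 of the processed intensity minus the 75th percentile of the array. Probes were kept if 1 or more groups had all 4 arrays well above background (27953 probes), and the brightest probe stood for a gene (20700 genes). All 6 groups were fitted in limma 3.58.1 (R 4.3.3) with 18 residual degrees of freedom and moderated variances, with Benjamini-Hochberg adjustment over all genes. The fit was tested on simulated data. The number of arrays limits the precision, with a median SE of 0.11 for a log2 difference from NT, and 53.0% to 60.6% of spots per array were well above background.

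The 10 KLF genes and all lists were chosen with earlier results of these data known. The text names all KLF genes, per list the 4 called genes with the largest difference from NT, and per KLF gene the 2 most correlated genes, apart from items that are not reported here. The comparisons of each co-treatment with C3/C2 or SN alone were added after values had been seen, as were the rule that a sign change counts only where an adjusted p is under 0.05 in either fit, and the listing of interactions at any fold. Spike-in scaling used 10 E1A probes, each taken as its deviation from the mean over arrays, a definition set after the spike-in values had been seen and before any fit with it. Alternatives were array median, quantile and spike-in scaling, normexp background correction with an offset of 50, and the authors' table, which repeats array median scaling. Further alternatives were other filters, other probe rules and thresholds, slide or replicate as a block, and leaving out each array. A comparison of protein sequences was not made here.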

Additional observations from a re-analysis of the deposited data

Results flagged for a closer look

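In 8 of 78 sets of 4 arrays (a probe in a group), 1 array stood apart from the other 3 by Dixon's criterion, which chance meets in about 1 in 20 groups. KLF2 was -1.38 on TRAIL+SN replicate 3, with the others at -1.59 to -1.57. KLF6 was 3.94 on SN replicate 3 with its brightest probe. The KLF6 probe on NM_001160124 was -2.69 on SN replicate 4 and -2.56 on TRAIL+SN replicate 4. KLF7 was -2.15 on TRAIL+C3/C2 replicate 2, the only array on which it was well above background, and -6.15 on TRAIL+SN replicate 3. KLF11 was -0.33 on TRAIL+SN replicate 4, and its other probe, not well above background, was -7.05 on C3/C2 replicate 4.

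In 6 cases the interaction term of the limma fit, which compares the response to C3/C2 or SN with and without TRAIL, had an adjusted p under 0.05. With C3/C2 the interaction was 0.82 for KLF2 (adjusted p = 0.00043) and 0.44 for KLF10 (adjusted p = 0.0343). With SN it was 0.40 for KLF2 (adjusted p = 0.0202), -0.66 for KLF4 (adjusted p = 0.00432), 0.39 for KLF10 (adjusted p = 0.0166) and -0.24 for KLF13 (adjusted p = 0.0169). Of these only that of KLF4 kept an adjusted p under 0.05 with array median, quantile and spike-in scaling, normexp background correction and the replicate block. With spike-in scaling both values of KLF10 and both of KLF2 lost it (adjusted p of 0.504 and 0.842, and of 0.117 and 0.784), as did KLF13, at -0.17, with normexp background correction (adjusted p = 0.112). The treatments in these terms lay on different slides, and slide and treatment cannot be told apart.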

How the results depend on the processing

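KLF4 and KLF9 kept their calls and directions in 204 of 204 alternative values. These cover C3/C2, SN and both co-treatments against NT, and SN against TRAIL. They include settings that only loosen the threshold, which cannot lose a call. They also include other filters and probe rules, which reread the same single probe of each gene, well above background on all arrays. Of 2106 alternative values of all KLF genes and comparisons (the settings that only move the threshold left out), 2065 kept direction and side of the threshold, 10 lost the call, 5 gained it and 26 turned sign, 22 of these with spike-in scaling. Array median scaling and the authors' table are counted separately in these numbers, although they are the same scaling. The causes were not tested. Spike-in scaling moved the share of calls that were higher from 67.2% to 21.3% with TRAIL+C3/C2 and from 61.3% to 26.9% with TRAIL+SN, and array median scaling moved the former to 42.2%. Spike-in scaling also moved that share from 25.5% to 9.63% with TRAIL, from 22.5% to 55.0% in SN against C3/C2, from 62.1% to 82.1% in SN against TRAIL, from 27.6% to 55.0% between the co-treatments, from 75% to 46.7% and from 89.2% to 46.9% in the interactions with C3/C2 and SN, from 42.7% to 8.01% in TRAIL+C3/C2 against C3/C2 and from 84.7% to 5.25% in TRAIL+SN against SN. With C3/C2 against NT the share was 68.5%, or 46.0% with array median scaling.

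With spike-in scaling, TRAIL+C3/C2 against NT became -0.27 for KLF2, -0.49 for KLF6, -0.28 for KLF10 and -0.11 for KLF13, TRAIL+SN against NT -0.42 for KLF6 and -0.46 for KLF11, TRAIL against NT -0.00553 for KLF13, and SN against TRAIL 0.11 for KLF5. TRAIL+C3/C2 against C3/C2 became -0.46 for KLF3, -0.45 for KLF5, -0.11 for KLF6, -0.00717 for KLF10 and -0.31 for KLF13. TRAIL+SN against SN became -0.38 for KLF2, -0.55 for KLF3, -0.56 for KLF4, -0.53 for KLF5, -0.42 for KLF6, -0.55 for KLF9, -0.15 for KLF10, -0.58 for KLF11 and -0.58 for KLF13. KLF6 in TRAIL+C3/C2 against NT was -0.13 with array median scaling and with the authors' table, which is scaled the same way. With the mean of its probes KLF6 was 0.29 in C3/C2 against NT and 0.0943 in SN against TRAIL.

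With spike-in scaling 4 KLF genes were called in TRAIL+C3/C2 against NT (KLF3 and KLF11 lower) and 1 in SN against C3/C2 (KLF10). Of the 20700 genes tested, this scaling called 1586 higher and 5871 lower in the former, and 657 and 537 in the latter. Without a minimum fold change, the KLF genes past the threshold against NT were 6 in C3/C2, 7 in SN, 3 in TRAIL, 8 in TRAIL+C3/C2 and 6 in TRAIL+SN, and further 7 in SN against C3/C2, 8 in SN against TRAIL, 5 between the co-treatments, and 2 and 4 in the interactions with C3/C2 and SN. Leaving out 1 array changed the number of KLF calls in TRAIL+C3/C2 against C3/C2 only, to between 0 and 1. Of the listed partner genes (lists of 14, 11, 9, 18 and 16 tested), 14 were called with TRAIL+C3/C2 against NT, 26 with spike-in scaling and 9 with normexp background correction. Over all genes the main fit called 3364 higher and 1642 lower there, and normexp 2438 and 771. Normexp also gave 14 in place of 22 partner genes with TRAIL+SN and 1 in place of 3 with TRAIL. Over all genes it called 2356 higher and 1035 lower with TRAIL+SN, in place of 3323 and 2097. With TRAIL it called 65 and 173, in place of 155 and 452. Without a minimum fold change the partner genes past the threshold numbered 52 in C3/C2, 54 in SN, 23 in TRAIL, 50 in TRAIL+C3/C2 and 51 in TRAIL+SN. The main rule gave 10, 15, 3, 14 and 22. Of all genes, 63%, 69.3%, 33.5%, 69.4% and 70.1% passed without a minimum fold change, in that order.

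The labels number replicates 1 to 4 in each group. Of 60 pairs of arrays with the same number, 57 had deviations correlated above 0.1 (r from 0.06 to 0.47). Of the 24 arrays, 23 were closest to arrays of their own number. These values point to pairing by replicate number, which the main fit leaves out. Since pairing was accepted only if every pair passed 0.1, the block was kept as an alternative. With it the KLF4 interaction with C3/C2 had an adjusted p of 0.0529 in place of 0.350. With the replicate block the KLF calls against NT stayed at 2 in C3/C2, 2 in SN, 0 in TRAIL, 2 in TRAIL+C3/C2 and 3 in TRAIL+SN, and the number of KLF calls changed in no other comparison. Slide as a random block had a correlation of 0.0256.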

Other observations

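Replicates 1 and 2 lay apart from replicates 3 and 4 in some KLF genes. For KLF9 both were above both others in 5 of 6 groups, and for KLF4 both were below in 6 of 6 groups. For KLF3 and for KLF10 both were below in 4 of 6 groups. Of 20683 genes, 16.9% showed one direction in at least 5 groups. The labels do not say which replicate numbers share an experiment.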
